A study of Mus musculus with 9 samples.

Results

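The complement system genes described here are the 31 genes of the table that encode the soluble components of complement, their regulators and the anaphylatoxin receptors. They were taken by symbol, and all 31 were found among the 55253 symbols of the table. By role they are the 3 chains of C1q, 6 further genes of the classical pathway (C1ra, C1rl, C1s1, C2, C4a and C4b), 5 of the lectin pathway (Mbl1, Mbl2, Colec11, Masp1 and Masp2), 4 of C3 and the alternative pathway (C3, Cfb, Cfd and Cfp), 7 terminal components (Hc, C6, C7, C8a, C8b, C8g and C9), 4 regulators (Cfhr2, Cfi, C4bp and Serping1) and 2 receptors (C3ar1 and C5ar1). Reads were found for 30 of them, and the same 30 passed the filter on low values (an average of 1 CPM or more over the 9 libraries, where CPM is read counts scaled to a common library size). C7 had 0 reads in all 9 libraries.

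The samples were livers of male C57Bl/6J mice. In 1 group of 5, mice aged 10 weeks at the start were given WD, read here as Western diet, which makes rodents' livers fatty, for 23 weeks. Their drinking water was sweetened and held 10% alcohol. The 4 control mice, labelled with the same 23 weeks, had chow and tap water, and the labels do not give their age. The effects of diet, alcohol and sweetening cannot be told apart in this design, and the groups are called WD+alcohol and control below.

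Complement is a cascade of plasma proteases and cofactors that tags particles for uptake, releases the anaphylatoxins C3a and C5a, and ends in a pore made of the terminal components. Hepatocytes secrete most of the circulating proteins, whereas C1q is made mainly by macrophages, factor D (adipsin) mainly by fat cells, and properdin by leukocytes. The anaphylatoxin receptors sit mostly on myeloid cells.

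The libraries held 3635860 to 6643645 reads in genes, with the fewest in WD+alcohol 1. One read equalled 0.152 to 0.270 CPM, so that a gene without reads could still lie at up to 0.455 to 0.809 CPM (3 reads, counting error only). On the first principal component, which held 28.9% of the variance, the WD+alcohol libraries lay between -42.1 and -2.07, with WD+alcohol 1 furthest out, and the controls between 16.7 and 22.1. Albumin (Alb) was high in every library, at 18876 ± 3597 CPM (SD, n = 5) with WD+alcohol and 33497 ± 6566 CPM (SD, n = 4) in controls. The stromal genes Col1a1 (1972 ± 151 against 2075 ± 108 CPM) and Acta2 (966 ± 71.2 against 1005 ± 88.4 CPM) were high in both groups, a point singled out after the values were seen. On the list of stellate, fibroblast and mesothelial markers 2 of 11 tested were called higher, the matrix genes Dcn (0.79 ± 0.13) and Lum (1.36 ± 0.28), and 0 lower, with sums of 5524 to 6461 CPM against 5367 to 6237 CPM.

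Promoters of the members that changed are shown because these genes fall into classes with different known cell sources. RefSeq entries on GRCm38.p6, an older build than the one of the deposited table, were found for 23 of the 31 members (none for C1qa, C2, C4a, C4b, Masp1, Cfb, Cfi and Serping1). The 250 bases before the annotated start are printed in the direction of the gene. For C1qb, C1qc and C5ar1, capitals mark ACTTCCT, the reverse complement of the ETS core AGGAAGT. That core is bound by ETS factors such as PU.1 of macrophages. The C1qb window is chr4:136886201-136886450 and the C1qc window chr4:136892915-136893164, both on the minus strand. The C5ar1 window is chr7:16259339-16259588, also on the minus strand.
C1qb: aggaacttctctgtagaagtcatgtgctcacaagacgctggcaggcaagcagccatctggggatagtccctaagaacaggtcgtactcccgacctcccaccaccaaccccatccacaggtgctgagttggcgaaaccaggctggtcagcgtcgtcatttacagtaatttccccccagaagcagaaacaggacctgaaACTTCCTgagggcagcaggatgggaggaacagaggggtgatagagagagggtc
C1qc: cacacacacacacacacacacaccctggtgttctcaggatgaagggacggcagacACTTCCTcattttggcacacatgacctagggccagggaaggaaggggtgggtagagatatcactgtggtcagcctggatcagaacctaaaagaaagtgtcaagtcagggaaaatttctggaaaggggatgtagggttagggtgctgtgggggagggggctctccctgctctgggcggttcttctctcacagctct
C5ar1: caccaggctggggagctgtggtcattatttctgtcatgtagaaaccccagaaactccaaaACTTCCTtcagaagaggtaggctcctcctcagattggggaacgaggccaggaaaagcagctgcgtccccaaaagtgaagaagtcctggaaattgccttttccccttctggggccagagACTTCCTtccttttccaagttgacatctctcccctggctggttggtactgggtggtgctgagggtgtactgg
The match begins 53 bases before the start in C1qb, 195 in C1qc, and 190 and 72 in C5ar1. Searched on both strands, this core was present in 4 of the 23 members (C1qb, C1qc, C5ar1 and Masp2) and in 7.70% of 32536 distinct windows of the same length. A member was counted if any of its windows matched, whereas the percentage is per window. These figures are therefore unlike measures, here and for the other motifs below, and no enrichment is shown. For C8b (chr4:104766067-104766316, plus strand) capitals mark ATTAAC, the reverse complement of GTTAAT, a half-site of the hepatocyte factor HNF1. The Cfd window (chr10:79890603-79890852, plus strand) held none of the motifs searched.
C8b: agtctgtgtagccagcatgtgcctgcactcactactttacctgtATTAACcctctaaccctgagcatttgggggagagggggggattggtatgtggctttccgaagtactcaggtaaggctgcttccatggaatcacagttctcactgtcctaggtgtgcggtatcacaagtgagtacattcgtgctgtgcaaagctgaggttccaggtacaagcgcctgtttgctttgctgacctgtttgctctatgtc
Cfd: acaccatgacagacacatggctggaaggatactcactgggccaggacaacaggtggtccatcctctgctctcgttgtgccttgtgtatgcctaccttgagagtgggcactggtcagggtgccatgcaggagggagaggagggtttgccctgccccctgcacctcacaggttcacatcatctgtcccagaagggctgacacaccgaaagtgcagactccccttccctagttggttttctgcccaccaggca
The half-site in C8b begins 206 bases before the start. It was present in 8 of the 23 members (C1ra, C4bp, C7, C8a, C8b, Cfhr2, Cfp and Hc) and in 6.47% of all windows. A STAT palindrome, TTCNNNGAA, was present in 4 members (C7, C8a, Colec11 and Masp2; 7.04% of all windows), and a C/EBP-type motif, TTGCNNAA, in 4 (C1rl, C1s1, C3 and C9; 9.57%). The motifs were chosen after the sequences were seen, and a match is a description of letters and not of binding.

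The comparison asked how the diet with alcohol changed complement expression in liver. C1q rose in all 3 of its chains, as did factor D (Cfd), while the pore component C8b fell. The C1q calls were kept in all 21 alternatives of the processing. That of Cfd was lost in 1 of them and that of C8b in 9, and the C8b groups overlapped. The C5a receptor (C5ar1) was called higher too, but passed the filter on low values only through the WD+alcohol libraries. With C5ar1, 5 members were higher and 1 was lower at an adjusted p under 0.05, and 24 were not called, with log2 fold changes from -0.63 to 0.95. Among all 14759 genes tested, 2.29% were called, 1.61% higher and 0.678% lower. Groups did not overlap in 6 members, the 5 called higher and C3ar1, and all 6 were higher. The share of all genes was 3.34% for higher and 2% for lower. At an unadjusted p under 0.05 there were 16 members, and 1798 of all genes.

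The median log2 fold change over the 30 members was 0.12, with 19 positive and 11 negative, against -0.0008 over all genes tested, of which 49.9% were positive. By role the median was 1.81 for C1q, 0.34 for C3 and the alternative pathway, 0.11 for the regulators and 0.01 for the other classical genes. It was -0.04 for the lectin pathway and -0.38 for the terminal components. The receptor median of 1.23 covers only 2 genes, C3ar1 and C5ar1. Of these, C5ar1 passed the filter only through the WD+alcohol libraries, so this median is no support. C5ar1 also counts in the median over the 30 members. Scaled on 40 hepatocyte reference genes, all genes shifted by 0.20 in the median. The lectin median then became 0.17 and the terminal median -0.17, and that of all members 0.33. With all libraries rescaled to one total the lectin median was 0.01.

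**Figure D1:**
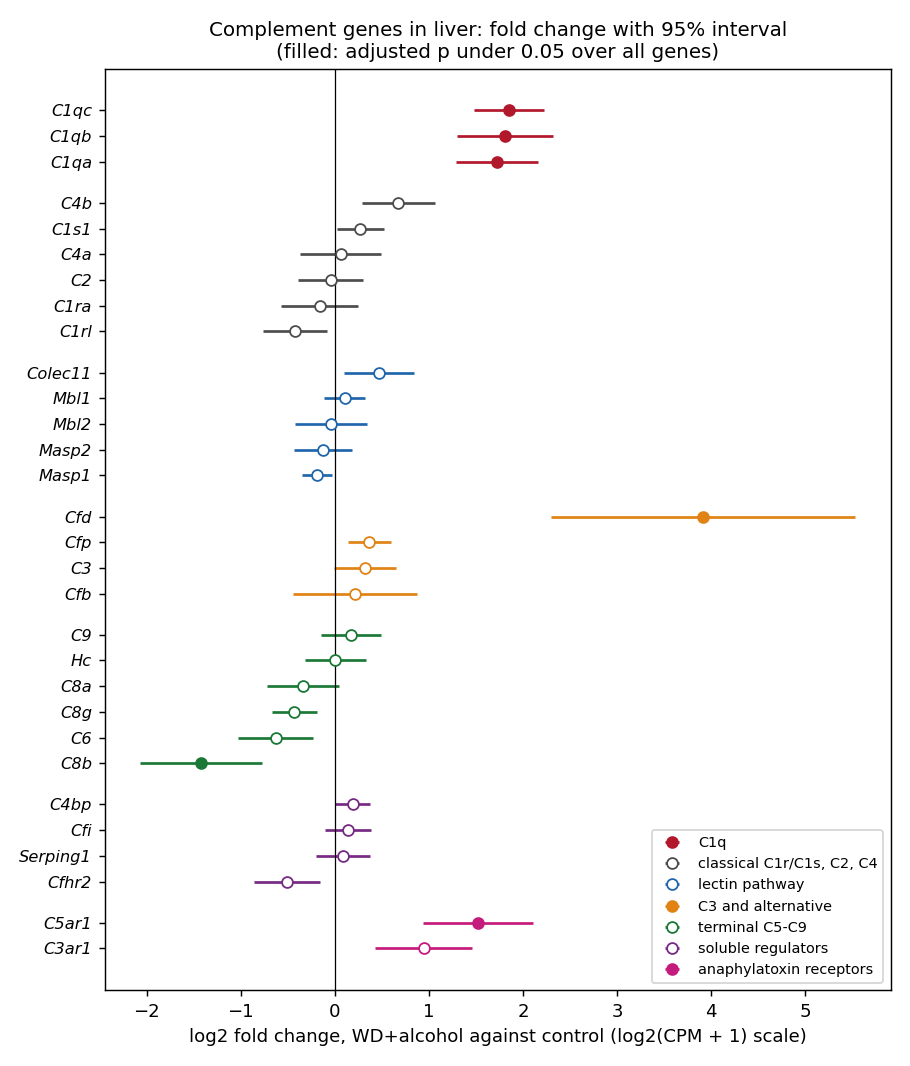
Log2 fold change (WD+alcohol minus control, on the log2(CPM + 1) scale) of the 30 members tested, grouped by role, with 95% intervals. The C1q chains lie between 1.72 and 1.85, Cfd has the widest interval (2.30 to 5.53), and C8b at -1.42 is the lowest. C7, with 0 reads, is not drawn.

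**Figure D2:**
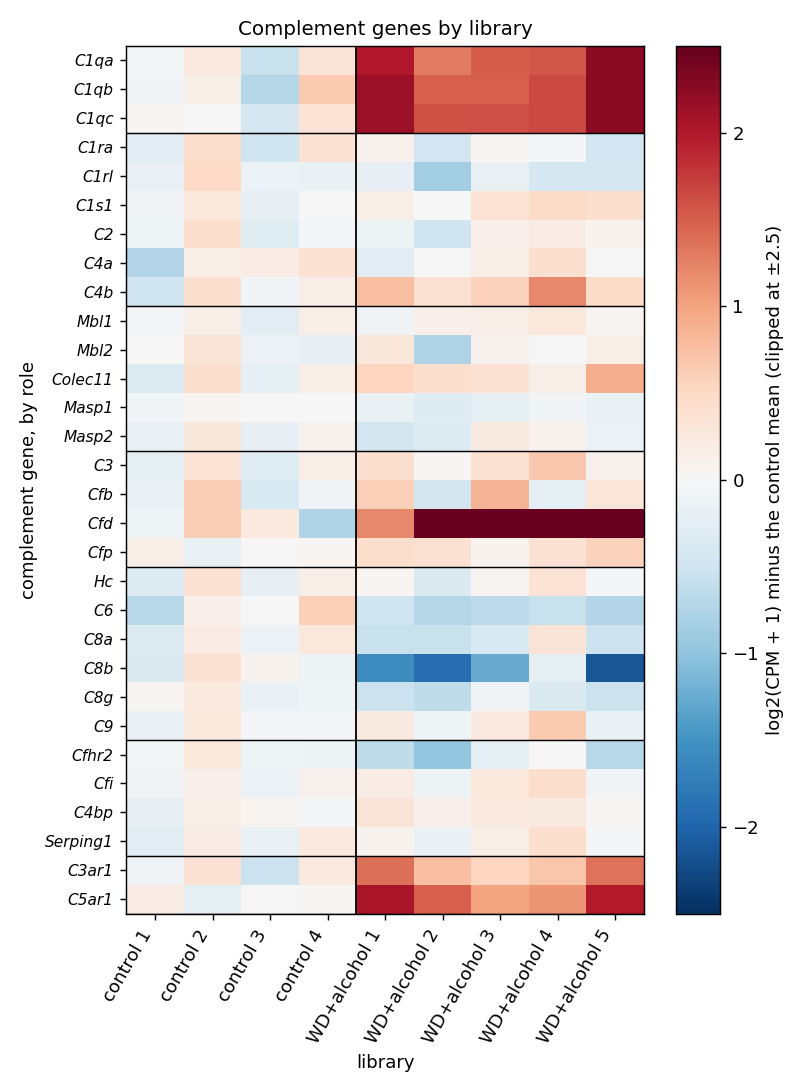
Level of each member in each library, as the difference of its log2(CPM + 1) from the mean of the 4 controls. The rows of C1q are high in all 5 WD+alcohol libraries, Cfd is also higher than the control mean in all 5, by between 1.20 (WD+alcohol 1) and 5.80 (WD+alcohol 4), and the C8b row is near the controls in WD+alcohol 4.

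C1q is the hexameric recognition protein of the classical pathway, built of A, B and C chains. C1qa stood at 133, 81.4, 94.97, 96.8 and 158 CPM in WD+alcohol 1 to 5, and at 32.0, 38.7, 21.9 and 40.9 CPM in control 1 to 4. C1qb stood at 85.2, 54.7, 54.1, 60.3 and 93.5 CPM against 17.6, 20.8, 10.9 and 29.7 CPM. C1qc stood at 91.9, 61.1, 62.3, 64.4 and 97.9 CPM against 20.4, 20.0, 14.6 and 25.4 CPM. In each chain the lowest WD+alcohol library lay above the highest control, WD+alcohol 1 and 5 were the highest libraries, and control 3 was the lowest.

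The rise on the log2 scale was 1.72 ± 0.20 (SE) for C1qa (limma-trend adjusted p = 4.31e-04), 1.81 ± 0.24 for C1qb (9.18e-04) and 1.85 ± 0.17 for C1qc (7.97e-05). Ratios of the group means were 3.38 for C1qa (113 ± 31.7 against 33.4 ± 8.54 CPM, SD, n = 5 and n = 4) and 3.76 for C1qc (75.5 ± 17.9 against 20.1 ± 4.41 CPM). The 3 chains kept their calls in all 21 alternatives.

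Shares of the chains were compared within libraries. Of the reads in the 3 chains, C1qa held 43.6 ± 1.61% with WD+alcohol and 45.8 ± 2.49% in controls, C1qb 26.9 ± 0.846% and 26.4 ± 3.34%, and C1qc 29.4 ± 1.07% and 27.9 ± 2.56%. None of these shares passed an exact permutation test (two-sided, adjusted over 5 shares, adjusted p = 0.397, 0.698 and 0.397). The smallest unadjusted p that 5 against 4 libraries can give is 0.0159, and 1 fully separated share alone would reach only 0.0794 after adjustment, so a constant share is not shown. Of the summed CPM of all 31 members, C1q made up 3.07 to 6.61% with WD+alcohol and 1.03 to 1.68% in controls.

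**Figure D3:**
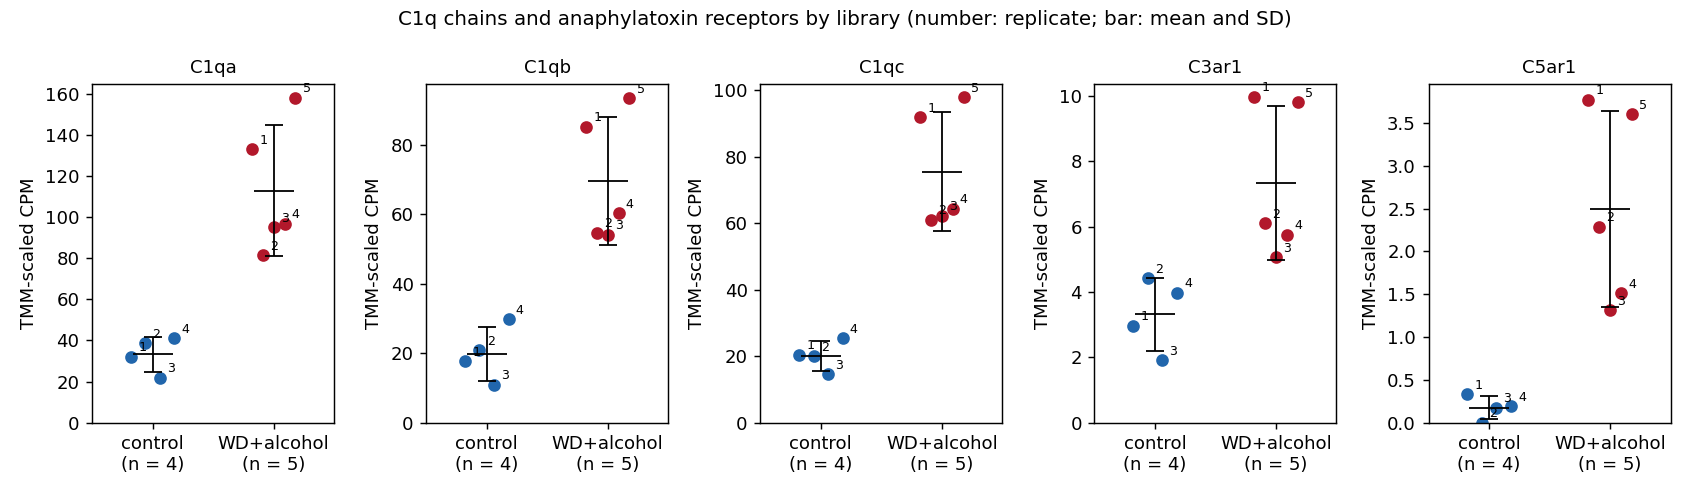
CPM of C1qa, C1qb, C1qc, C3ar1 and C5ar1 in every library (numbers are replicates), with the group mean and SD. In all 5 genes each WD+alcohol library lies above each control, and WD+alcohol 1 and 5 are the highest.

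Part of the macrophage markers rose as C1q did. Of 18 on the list, 9 were called higher, 0 lower and 9 were not called. Their log2 fold changes ran from -0.50 to 2.53 (median 0.88), with 15 positive and 3 negative. The summed level of the list was 837 to 1189 CPM with WD+alcohol and 495 to 616 CPM in controls. Cd163, also on the list, ran from 4.13 to 9.97 CPM with WD+alcohol and from 6.26 to 18.2 CPM in controls. Adgre1, which encodes F4/80, had a log2 fold change of 1.24 ± 0.16, Csf1r, the receptor of the macrophage growth factor CSF1, 1.26 ± 0.25, and the Kupffer cell lectin Clec4f 1.09 ± 0.23, with adjusted p = 7.87e-04, 0.0181 and 0.0239. Leaving out WD+alcohol 5 (0.0584) or control 1 (0.0518) ended the call of Csf1r, and leaving out WD+alcohol 1 (0.0553) or 5 (0.0774) that of Clec4f. Robust limma-trend also ended the calls of Csf1r (adjusted p = 0.129) and Clec4f (0.0814), and limma-trend with a replicate block that of Clec4f (0.100). Adgre1 kept its call in all 21 alternatives. In bulk liver more cells of a type and more RNA per cell cannot be told apart. The part of the macrophage markers in the C1q result was not tested.

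Ratios within a library set C1q against single macrophage genes and are given as descriptions. Summed C1q per Csf1r was 2.55 to 3.03 with WD+alcohol and 1.61 to 2.39 in controls, and per Clec4f 6.53 to 8.22 and 3.94 to 5.81. Per Vsig4, the macrophage receptor for C3 fragments, it was 7.35 to 10.8 and 5.12 to 6.67. The groups did not overlap in these 3 ratios, and they overlapped per Adgre1 (9.36 to 15.6 and 6.82 to 9.57) and per Cd68 (8.55 to 11.99 and 4.01 to 8.74). Per Cd5l, a protein secreted by macrophages, C1q went the other way, at 1.40 to 1.89 with WD+alcohol and 2.69 to 2.98 in controls. Timd4, a marker of resident Kupffer cells, was not called, at -0.22 ± 0.29 (adjusted p = 0.843). It had only 65 reads in all with WD+alcohol and 61 in controls (0.909 to 4.00 and 1.65 to 3.78 CPM), so a constant level is not shown.

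**Figure D4:**
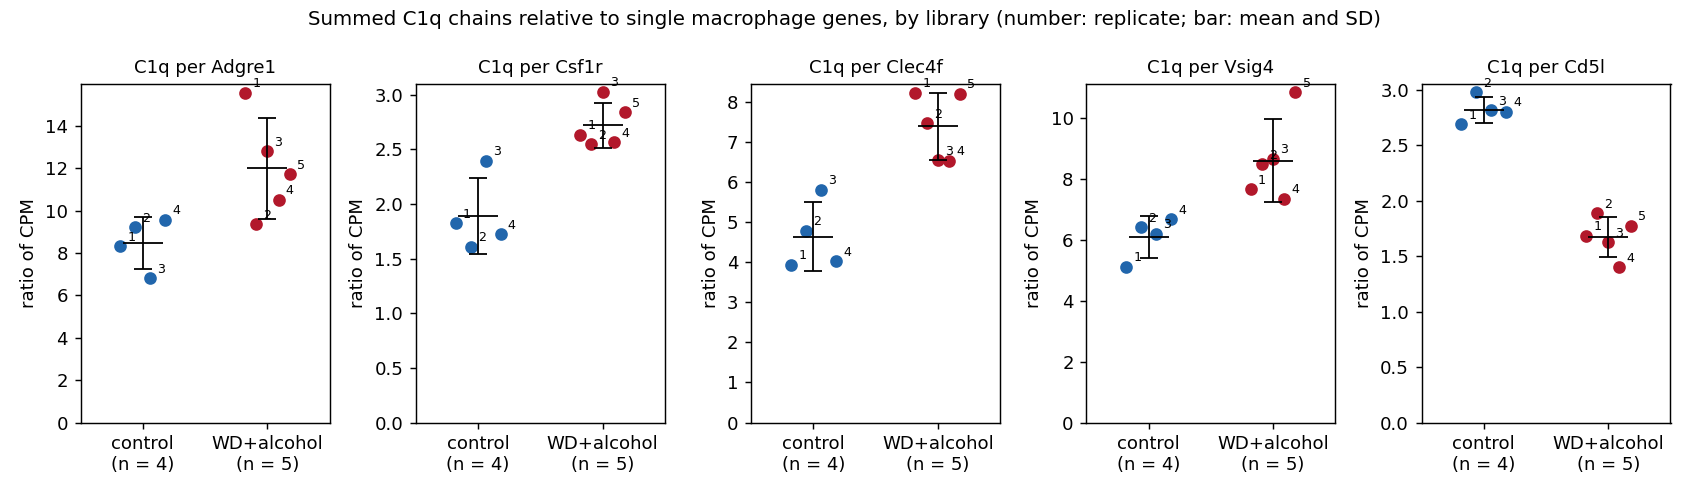
Summed CPM of the 3 C1q chains divided by the CPM of Adgre1, Csf1r, Clec4f, Vsig4 or Cd5l in every library, with the group mean and SD. The ratio is higher with WD+alcohol without overlap for Csf1r, Clec4f and Vsig4, overlaps for Adgre1, and is lower without overlap for Cd5l.

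C5ar1 encodes the main receptor for C5a. Its reads were few, at 14, 15, 7, 10 and 18 in WD+alcohol 1 to 5 and 2, 0, 1 and 1 in control 1 to 4. As levels these were 3.77, 2.29, 1.31, 1.52 and 3.603 CPM against 0.330, 0, 0.174 and 0.189 CPM. The groups did not overlap, and all controls lay under the level of 3 reads. The fitted difference was 1.52 ± 0.27 on the log2 scale (limma-trend adjusted p = 0.00807), and over the group totals of 64 and 4 reads the depth-adjusted ratio was 12.9, with a 95% interval of 4.79 to 48.7 for counting error only. The control mean, 0.173 ± 0.135 CPM (SD, n = 4), was under the filter, so the test at that filter is no support. With no filter, over all 24607 genes with reads, the adjusted p was 0.0101 (limma-trend).

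C3ar1, the receptor for C3a, stood at 9.97, 6.11, 5.07, 5.76 and 9.81 CPM against 2.97, 4.41, 1.91 and 3.98 CPM. Its groups did not overlap either, but the difference of 0.95 ± 0.24 was not called (adjusted p = 0.0604). It was called in 5 of 21 alternatives, among them DESeq2 (0.0136). Per Csf1r it was 0.07 to 0.08 with WD+alcohol and 0.07 to 0.10 in controls. Neutrophils also carry both receptors, and their 11 markers summed to 21.8 to 45.4 CPM with WD+alcohol and 9.87 to 23.7 CPM in controls. No neutrophil marker of the 3 tested was called, though all 3 log2 fold changes were positive (0.36 to 1.77, median 0.70). Their part in the receptor results was not tested.

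Factor D (Cfd) is the protease that cleaves factor B and so starts the alternative pathway convertase. It stood at 4.31, 70.6, 76.2, 128 and 12.6 CPM in WD+alcohol 1 to 5, and at 1.15, 2.52, 1.74 and 0.379 CPM in control 1 to 4. All WD+alcohol libraries lay above all controls, yet within WD+alcohol the highest was 29.7 times the lowest. Cfd rose by 3.91 ± 0.75 on the log2 scale (95% interval 2.30 to 5.53, limma-trend adjusted p = 0.0132), from a mean of 1.45 ± 0.907 CPM (SD, n = 4) to 58.4 ± 50.9 CPM (SD, n = 5). With robust limma-trend it was not called (adjusted p = 0.131). WD+alcohol 1 and 5, the lowest in Cfd, were the highest in C1q.

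Genes that define fat cells were at or near 0 reads. Adipoq, Plin1, Lep, Retn and Adig together reached 0.303 to 1.08 CPM with WD+alcohol and 0 to 0.174 CPM in controls, and Lep had 0 reads in all 9 libraries. Among the 10 adipocyte list genes, 5 were tested and 2 were called higher, Fabp4 and Cidea, both also known from fatty liver. The 10 genes summed to 199 to 341 CPM with WD+alcohol and 117 to 245 CPM in controls. Cidea, a lipid droplet protein, stood at 4.04, 58.4, 44.3, 2.27 and 80.9 CPM in WD+alcohol 1 to 5. The part of fat-cell markers in the Cfd result was not tested. The call of Cidea was lost in 12 of 21 alternatives.

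The remaining alternative pathway genes were not called. C3, the central protein on which all pathways meet, had the highest CPM of the members, at 1371 to 2148 CPM (median 1760) with WD+alcohol and 1100 to 1702 CPM in controls (0.32 ± 0.15, adjusted p = 0.432). As a share of the summed members it was 27.4 to 30.1% with WD+alcohol and 23.9 to 27.1% in controls, a description in which the groups did not overlap. Properdin (Cfp), which stabilises the convertase, averaged 47.1 ± 5.82 against 36.2 ± 3.59 CPM (0.37 ± 0.11, adjusted p = 0.107, and 0.0418 without WD+alcohol 3). Factor B (Cfb), the substrate of factor D, was low at 1.98 ± 1.09 against 1.52 ± 0.829 CPM (0.21 ± 0.31, adjusted p = 0.857), from 50 and 32 reads. In GENCODE M21, 79.5% of the exon bases of Cfb overlap Gm20547 on the same strand, a gene at 0 CPM here, as do 42.8% of those of C2. The sources used here do not say how reads in such an overlap were assigned, so the levels of Cfb and C2 are uncertain.

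The terminal components form the pore, with C8 made of an alpha, a beta and a gamma chain. C8b, the beta chain, stood at 38.5, 30.1, 48.0, 99.2 and 25.6 CPM in WD+alcohol 1 to 5, and at 90.6, 153, 124 and 106 CPM in control 1 to 4. WD+alcohol 4 lay within the control range, and the other 4 WD+alcohol libraries lay below all controls. C8b fell by 1.42 ± 0.30 on the log2 scale (limma-trend adjusted p = 0.0234), from 118 ± 26.6 to 48.3 ± 29.7 CPM. The call was lost in 9 of 21 alternatives, among them edgeR on the recovered reads (adjusted p = 0.0600), DESeq2 (0.0510) and robust limma-trend (0.169), and when WD+alcohol 1, 2 or 5 or control 2 or 3 was left out (0.0525 to 0.0704).

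C8a, the alpha chain, stood at 213, 212, 240, 394 and 218 CPM with WD+alcohol and 247, 363, 284 and 378 CPM in controls (-0.34 ± 0.18, adjusted p = 0.481). WD+alcohol 4 lay above all controls, and the other 4 WD+alcohol libraries lay below all of them. C8b per C8a, which does not depend on the scaling of a library, was 0.12 to 0.25 with WD+alcohol and 0.28 to 0.44 in controls. Per C8g the groups overlapped, at 0.13 to 0.45 with WD+alcohol and 0.31 to 0.49 in controls. The highest WD+alcohol library was WD+alcohol 4 in both ratios. Both were formed after the values were seen and were not tested. C8g, the gamma chain, ran from 184 to 267 CPM with WD+alcohol and from 254 to 335 CPM in controls (-0.43 ± 0.11, adjusted p = 0.0687). It was called without WD+alcohol 3 (0.0171) and with DESeq2 (0.0267).

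C6, which joins C5b at the start of pore assembly, was even among the WD+alcohol libraries, from 55.9 to 66.0 CPM, and stood at 57.2, 101.5, 91.9 and 141 CPM in the controls. Control 1 lay within the WD+alcohol range, and the difference of -0.63 ± 0.18 was not called (adjusted p = 0.112), but without control 1 it was (-0.86, adjusted p = 0.00409), as it was with DESeq2 (0.0142). Hc, which encodes C5, averaged 200.6 ± 35.1 against 200.9 ± 45.3 CPM (0.01 ± 0.15, adjusted p = 0.994). C9, which polymerises into the ring of the pore, averaged 279 ± 67.3 against 244 ± 31.6 CPM (0.17 ± 0.15, adjusted p = 0.735). Hence 1 of the 6 terminal genes tested was called, and both signs occurred among the others.

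**Figure D5:**
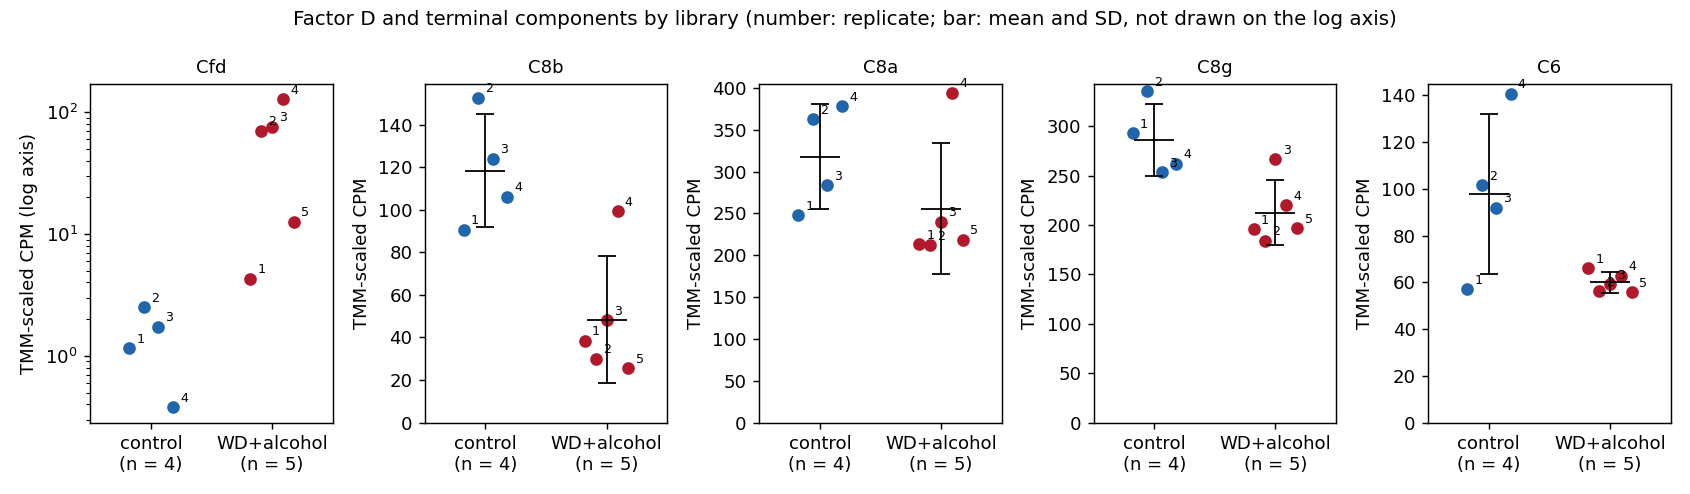
CPM of Cfd (log axis) and of terminal component genes in every library (numbers are replicates). The group mean and SD are drawn for the terminal component genes and not for Cfd. Cfd is spread from 4.31 to 128 CPM within WD+alcohol, and C8b is low in 4 of the 5 WD+alcohol libraries, with WD+alcohol 4 at 99.2 CPM.

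In the classical pathway below C1q no gene was called. C4b, which encodes C4, stood at 378, 293, 335, 515 and 308 CPM with WD+alcohol and 159, 295, 213 and 253 CPM in controls. Only WD+alcohol 2 lay below the highest control, and the difference of 0.67 ± 0.18 had an adjusted p of 0.0730. It was called in 5 of 21 alternatives, among them with all libraries rescaled to one total (0.0221), with hepatocyte scaling (3.77e-04) and without control 2 (0.0378). C4a, the near-identical neighbour known as sex-limited protein, averaged 19.7 ± 3.51 against 19.4 ± 5.85 CPM (0.06 ± 0.20, adjusted p = 0.949). Reads may be shared between these copies.

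Of the reads in C4a and C4b, C4a held 5.22 ± 0.921% (SD, n = 5) with WD+alcohol and 7.73 ± 1.40% (SD, n = 4) in controls. The groups did not overlap (3.90 to 5.97% and 6.40 to 9.11%), and this gave the smallest p the exact permutation test can give (two-sided p = 0.0159, adjusted p = 0.0794 over 5 shares). The proteases of the C1 complex differed in sign, with C1s1 at 0.27 ± 0.11 (adjusted p = 0.330), C1ra at -0.16 ± 0.19 (0.813) and the C1r-like C1rl at -0.42 ± 0.16 (0.258). C2, which forms the classical convertase with C4, was at -0.04 ± 0.16 (0.957).

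The lectin pathway starts from mannose-binding lectins and collectins that bind sugars, and none of its 5 genes was called. Mbl1 ran from 101 to 129 CPM with WD+alcohol and from 88.8 to 120 CPM in controls (0.10 ± 0.10). Mbl2 ran from 92.4 to 190 and from 135 to 195 CPM (-0.04 ± 0.18). Mbl1 made up 43.4 ± 7.94% and 40.9 ± 4.13% of the pair (exact permutation test, two-sided, adjusted p = 0.698). Colec11, a collectin, averaged 23.0 ± 4.85 against 16.4 ± 4.15 CPM (0.47 ± 0.17, adjusted p = 0.243).

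Masp1 and Masp2 are the proteases that lectin binding activates. Masp1 was at 59.6 to 71.7 CPM with WD+alcohol and 71.3 to 79.0 CPM in controls (-0.19 ± 0.08, adjusted p = 0.290), and the WD+alcohol group reached the controls only through WD+alcohol 4. Masp2 averaged 102 ± 20.4 against 111 ± 19.1 CPM (-0.13 ± 0.14). Of its exon bases, 54.9% overlap Tardbp on the opposite strand, a gene at 131 CPM here. Whether the counting used strand is not stated, so the level of Masp2 is uncertain.

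Among the regulators, C1 inhibitor (Serping1), abundant in every library, averaged 973 ± 155 against 916 ± 164 CPM (0.09 ± 0.13, adjusted p = 0.860). Factor I (Cfi), which cleaves C3b and C4b, was at 0.14 ± 0.11 (0.723) and its cofactor C4bp at 0.19 ± 0.09 (0.418). Cfhr2, a factor H-related protein, ran from 65.4 to 127 CPM with WD+alcohol and from 118 to 155 CPM in controls (-0.51 ± 0.16, adjusted p = 0.157). Its highest WD+alcohol library was WD+alcohol 4, and without it the difference was -0.63 (adjusted p = 0.0350).

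C3, the classical genes other than C1q, and the lectin, terminal and regulator genes were grouped by role as mainly hepatocyte components. The cell source of each gene was not checked. Of these 23 members 22 were tested, with 0 called higher and 1 lower, C8b. They had 11 positive and 11 negative signs and a median of -0.02. At an unadjusted p under 0.05 (limma-trend) there were 9 of the 22, against 1798 of all 14759 genes tested. Among all genes tested, 1.61% were called higher and 0.678% lower. The 40 hepatocyte reference genes included 1 called higher and 4 lower, with a summed level of 58427 to 85837 CPM against 79014 to 109010 CPM. This sum includes Alb, at 14342 to 23414 CPM with WD+alcohol and 26685 to 42089 CPM in controls. Alb was called lower (-0.83 ± 0.20, limma-trend adjusted p = 0.0491). Over the 40 genes the median was -0.15, with 11 positive and 29 negative signs. The part of the reference genes in the results for hepatocyte components was not tested. As other proteins secreted by the liver, 22 genes of coagulation and its control (proteases, cofactors, fibrinogen chains and inhibitors) were read beside them. Of these 0 were called higher and 2 lower, F11 (-1.44 ± 0.18) and Klkb1 (-0.97 ± 0.18), proteases of the contact system, with 5 positive and 17 negative signs.

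Of 28 further complement genes (receptors, membrane regulators and others), 22 were tested, 2 were called higher and 1 lower, with a median of 0.13. Over all genes tested the shares called were 1.61% higher and 0.678% lower. Clusterin (Clu), which binds terminal complexes in plasma, averaged 1201 ± 118 against 812 ± 88.2 CPM (0.56 ± 0.10, adjusted p = 0.00660). Vsig4, which is also on the macrophage list, averaged 30.1 ± 6.91 against 12.03 ± 3.04 CPM (1.26 ± 0.19, adjusted p = 0.00274). Susd4, a membrane protein with complement control domains, stood at 1.62, 3.97, 6.01, 4.24 and 4.40 CPM with WD+alcohol against 12.03, 12.6, 15.3 and 21.2 CPM (-1.73 ± 0.26, adjusted p = 0.00257). In all 3 genes the groups did not overlap, against 3.34% of all genes tested for higher and 2% for lower.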

How the data were processed

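Liver RNA of 9 male mice was made into 3′ mRNA libraries (Collibri kit), per the labels' protocols. Such counts do not scale with transcript length. Each library was taken as 1 mouse, since the design gives 5 and 4. The submitters' processing notes name Trim Galore 0.6.0, cutadapt 1.18, STAR, HTSeq 0.11.0, the mouse build mm39 (GRCm39), and edgeR 3.28.1 under R 3.6.3. Strand and multimapping settings are not given in the sources used here. The deposited values are a signal, CPM scaled by TMM by the authors. Whole reads were recovered from them (tolerance 1e-06) for depths and count-based alternatives.

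For the 14759 genes averaging 1 CPM or more, log2(CPM + 1) was fitted with limma-trend (two-sided; R 4.3.3 with limma 3.58.1), with Benjamini-Hochberg adjustment over all of them and a threshold of 0.05. Fold changes on this scale understate low genes. Errors are SD for CPM and SE for log2 fold changes. Shares were tested by exact permutation over samples (SciPy 1.17.1). No 2 libraries were alike within sampling noise (lowest chi-square per degree of freedom 5.96). All 31 members were named, with called genes of the 2 further lists and the markers set beside a member. The members and lists were chosen with earlier results of these data known. The fit was tested on simulated counts. Alternatives were pseudocounts of 0.25 and 5, no filter, a mean of at least 5 CPM, 3 other scalings, robust fitting, array weights, a replicate block, edgeR 4.0.16 quasi-likelihood, DESeq2 1.42.0 and leaving out each library. Overlapping genes were read from GENCODE M21, an older build, by name only. Figures used Python 3.11.15 and matplotlib 3.10.9.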

Additional observations from a re-analysis of the deposited data

Results flagged for a closer look

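In 2 of 70 groups of libraries, 1 library stood apart from the others of its group by Dixon's criterion, which chance meets in about 5 of 100 groups. C1rl in control 2 was at 97.3 CPM, with the other controls between 60.5 and 62.6 CPM. C8a in WD+alcohol 4 was at 394 CPM, with the other WD+alcohol libraries between 212 and 240 CPM.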

How the results depend on the processing

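Over 42 genes and 21 alternatives, 879 values were obtained, of which 805 kept their direction and side of the threshold, 35 lost a call, 16 gained one and 23 changed sign. The number of genes called, 338, was 614 with hepatocyte scaling, 545 with DESeq2 and 201 to 387 with 1 library left out (lowest without WD+alcohol 5). Those higher, 238, were 365 with one total, 530 with hepatocyte scaling, 370 with DESeq2 and 139 to 264 with 1 library left out (148 without control 1). Those lower, 100, were 175 with DESeq2 and 59 to 123 with 1 library left out (lowest without control 2). Higher genes made up 70.4% of calls, 77.7% with one total and 86.3% with hepatocyte scaling. Members higher, 5, ranged from 4 to 7 over all alternatives. Members lower were 0 with robust limma-trend and edgeR, 2 with DESeq2, and 0 to 2 with 1 library left out. They were 0 without WD+alcohol 1, 2 or 5 or control 2 or 3, and 2 without WD+alcohol 3 or 4 or control 1. Other complement genes lower were 1 to 2. The cause was not tested for any of these.

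Signs changed in members near 0. Hepatocyte scaling gave C1ra 0.050, C2 0.17, Mbl2 0.17, Masp1 0.020 and Masp2 0.085. One total gave C2 0.012 and Mbl2 0.012, and array weights gave C2 0.028 and Mbl2 0.034. Hc was -0.0048 with edgeR and -0.0046 with DESeq2. With 1 library left out, C2 ran from -0.14 to 0.11, C4a from -0.18 to 0.18, Mbl2 from -0.13 to 0.13, Hc from -0.10 to 0.13 and Serping1 from -0.0016 to 0.17. The difference in percentage points ran from -0.53 to 4.77 for the Mbl1 share of Mbl1 plus Mbl2 and from -0.50 to 2.13 for the C1qb share of C1q. The cause was not tested.

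Replicate numbers did not pair the libraries (same-number correlations -0.31 to -0.01 over 4 pairs, 0 libraries closest to their own number). With the replicate number as a block, WD+alcohol 5 has no control of its number and drops out of the comparison, which alone gave 201 calls. In that fit 112 genes were called, 76 higher and 36 lower, with 4 members higher, 0 lower and 1 other complement gene higher. C8b (adjusted p = 0.126) and C5ar1 (0.0807) were not called. Low reads limit C5ar1 and Cfb most, and C5ar1 could not be tested at a mean of at least 5 CPM.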
